A study of Rattus norvegicus with 6 samples.

Results

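Genes of cholesterol and fatty acid synthesis were examined in kidneys of 2 rat strains. The set is a list of 35 genes: enzymes of the sterol pathway, enzymes of fatty acid synthesis, elongation and desaturation, the regulators of the SREBP transcription factors, and a few genes of sterol transport. A gene was represented by its probe set (the group of oligonucleotides that reports 1 transcript on the array) with 1 gene symbol in the array annotation and the highest mean signal over the 6 arrays. A probe set was found for 33 of the 35 genes, among 14217 genes so named on the array, and Hmgcs1 and Npc1 were not analysed here. The 33 comprised 17 sterol pathway genes, 9 fatty acid pathway genes, 5 SREBP regulators and 2 sterol transport genes, Stard4 and Abca1.

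The tested animals were 3 congenic rats, labelled S.LEW.D1MCO4x1x3Bx1, which carry a chromosome segment of the Lewis (LEW) strain on the Dahl salt-sensitive background. They were compared with 3 inbred Dahl salt-sensitive (SS/Jr) rats, called S, the parental strain in which salt raises blood pressure. All 6 were adult males and each gave 1 array of total kidney RNA, with no further statement of age or diet in the labels. The series title places the arrays in the positional search for Adamts16 variants in hypertension, so the strains differ by design at a region of chromosome 1 and otherwise share the S background. The congenic rats are 1 strain, and an inherited difference elsewhere cannot be told apart from one in the segment.

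Cholesterol is built from acetyl-CoA through mevalonate, farnesyl diphosphate and squalene, which is closed into lanosterol and then trimmed to cholesterol. Fatty acids are built from the same acetyl-CoA, made in the cytosol from citrate, and are then lengthened by elongases and given double bonds by desaturases. Enzymes of both routes are targets of SREBP transcription factors, which SCAP carries from the endoplasmic reticulum to the Golgi for activation and which INSIG proteins hold back when sterols are plentiful. In bulk kidney RNA, fewer cells of a type and less RNA per cell cannot be told apart.

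The median probe set of an array read 163 to 174 in congenic and 171 to 178 in S kidneys, in units of the deposited, scaled signal. As a measure of intact RNA, the ratio of 3' to 5' probe signals of beta-actin stood at 1.94 to 2.06 in congenic and 1.99 to 2.30 in S kidneys. Of 8 kidney markers 7 were measured, with summed signals of 105560 to 116508 in congenic and 93839 to 107449 in S kidneys, and none of the 7 was at or under the floor for low signals (12.3) in any rat. Adrenal cortex markers (7 of 9 measured) summed to 750.2 to 975 in congenic and 742 to 948 in S kidneys, and hepatocyte markers (6 of 6) to 487 to 599 in congenic and 439 to 648 in S kidneys. Of the kidney markers 2 were at unadjusted p below 0.05, in opposite directions, Umod of the thick ascending limb with a log2 difference of 0.25 (limma adjusted p = 0.453) and Slc12a1, the cotransporter of the same segment, with -0.26 (limma adjusted p = 0.395). By their most intense probe sets, 2 of the 7 adrenal markers passed the filter on low signals described next, Cyp11a1 (142 to 229 in congenic and 199 to 244 in S kidneys) and Mrap (357 to 392 in congenic and 332 to 383 in S kidneys). So did 1 of the 6 hepatocyte markers, Fga (178 to 343 in congenic and 266 to 312 in S kidneys), while the rest, Star, Cyp11b1, Alb and Cyp7a1 among them, were under it. The part of these cells in the results was not tested.

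Of the 33 genes, 31 passed the filter on low signals, which kept probe sets whose mean log2 signal over all arrays was above the median. Acacb and Scd did not. Over all 15521 probe sets that passed, limma's moderated test of congenic against S with Benjamini-Hochberg adjustment called 0 at adjusted p 0.05 (0%), and so it called 0 of the 31 genes. At unadjusted p below 0.05 there were 1602 probe sets (10.3%), and 4 of the 31 genes. At that unadjusted level 732 probe sets (4.72%) had higher signals in congenic kidneys, as did 3 of the genes, Fdft1, Tm7sf2 and Msmo1. There were 870 probe sets (5.61%) with lower signals in congenic kidneys, as did Insig2. The strains did not overlap, in either direction, in 2478 of the probe sets tested (16%) and in 4 of the 31 genes, with Fdft1 and Tm7sf2 higher in each congenic rat and Insig2 and Abca1 lower. The 4 in 31 genes reached by either reading are a share near the background.

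Promoter windows from RefSeq (build GRCr8, 250 bases before to 50 after the annotated gene start) were found for 28 of the 35 listed genes. They are shown for Msmo1, Tm7sf2 and Insig2, which are 3 of the 4 genes with unadjusted p below 0.05, and for Insig1, the paralogue of Insig2. Capitals mark CCAAT, the letters bound by NF-Y, and GGGCGG, the letters bound by Sp1, on either strand. Both factors are known partners of SREBP on sterol genes. The windows are chr16:29746863-29747162 on the plus strand for Msmo1, and on the minus strand chr1:212789492-212789791 for Tm7sf2, chr4:8057720-8058019 for Insig1 and chr13:35040049-35040348 for Insig2.
Msmo1: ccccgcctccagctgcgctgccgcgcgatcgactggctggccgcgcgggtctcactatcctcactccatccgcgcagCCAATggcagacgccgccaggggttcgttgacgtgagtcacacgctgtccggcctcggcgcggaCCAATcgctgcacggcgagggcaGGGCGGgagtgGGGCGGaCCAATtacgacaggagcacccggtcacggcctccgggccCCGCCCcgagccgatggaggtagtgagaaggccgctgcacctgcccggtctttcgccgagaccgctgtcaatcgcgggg
Tm7sf2: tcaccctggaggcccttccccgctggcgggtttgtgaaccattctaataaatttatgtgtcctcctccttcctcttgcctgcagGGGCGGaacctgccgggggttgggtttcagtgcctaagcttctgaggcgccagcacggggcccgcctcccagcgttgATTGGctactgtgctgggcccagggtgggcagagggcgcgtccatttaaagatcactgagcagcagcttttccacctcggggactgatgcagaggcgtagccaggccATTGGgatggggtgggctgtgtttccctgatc
Insig1: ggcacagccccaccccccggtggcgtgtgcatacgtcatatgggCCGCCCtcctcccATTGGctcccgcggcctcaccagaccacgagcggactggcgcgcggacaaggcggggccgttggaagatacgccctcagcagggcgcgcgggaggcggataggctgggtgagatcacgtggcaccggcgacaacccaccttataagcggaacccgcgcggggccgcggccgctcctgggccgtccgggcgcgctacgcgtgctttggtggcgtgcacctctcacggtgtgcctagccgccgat
Insig2: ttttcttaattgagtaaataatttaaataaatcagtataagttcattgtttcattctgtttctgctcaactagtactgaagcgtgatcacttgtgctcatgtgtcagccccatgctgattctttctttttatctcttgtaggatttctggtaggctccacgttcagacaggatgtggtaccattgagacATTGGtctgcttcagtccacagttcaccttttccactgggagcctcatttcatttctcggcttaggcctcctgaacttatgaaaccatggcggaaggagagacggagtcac

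The Msmo1 window held 3 matches to CCAAT and 3 to GGGCGG. The Tm7sf2 window held 2 to CCAAT and 1 to GGGCGG, and the Insig1 window held 1 of each. The Insig2 window held 1 match to CCAAT and 0 to GGGCGG. Over the set, 20 of 28 genes (71.4%) had CCAAT in the window, against 36.8% of the 13242 windows of genes named on the array and 37.5% of all 33469 windows. GGGCGG was in 22 of 28 (78.6%), against 55.7% of the windows of genes on the array and 33.1% of all windows. Both were in 15 of 28 (53.6%), against 20.3% of the windows of genes on the array and 11.8% of all windows. The letters TCACNCCAC, a core of the classical sterol regulatory element, were in 0 of 28 windows and in 1.07% of those of genes on the array. Both strands were searched, and motifs can share letters at their ends, as CCAAT read on the other strand and GGGCGG do. These are counts of letters and say nothing on binding. Whether the annotated starts are those used in kidney was not tested, so a window, that of Insig2 included, may lie outside the promoter.

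The sterol pathway genes showed a mixed picture, with log2 differences (congenic minus S) from -0.21 to 0.28 over 17 genes. The median was 0.04, against -0.01 over all probe sets tested, and 11 of 17 were positive, against 48.2% of all probe sets. That median ran from -6.69e-04 without congenic rat 1 to 0.12 without congenic rat 3, with 0.01 without congenic rat 2 and 0.003 without S rat 3. It was 0.11 with arrays centred on their medians and -0.01 with the block on array title numbers described below. It was also negative with all tested probe sets of a gene averaged. Its size thus rested on single rats and on the scaling, and its sign on congenic rat 1, the block and the choice of probe set. No gene of the pathway passed the adjusted threshold, the smallest adjusted p in limma being 0.303. The 3 of 17 genes at unadjusted p below 0.05 all had the higher signal in congenic kidneys. Of all probe sets tested 10.3% reached that level, 4.72% with the higher signal in congenic kidneys, and the shares were not tested against each other.

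At the entry of the pathway, Acat2, the cytosolic thiolase that joins acetyl-CoA units, read 575 ± 70.3 in congenic and 597 ± 60.5 in S kidneys (SD, n = 3 each, as in all values below). The kinase genes Mvk and Pmvk, which phosphorylate mevalonate, had log2 differences of 0.04 and -0.21, and the decarboxylase gene Mvd had -0.07. None of these 4 was separated between strains, the ranges overlapping in each. Idi1, the isomerase of the isoprenoid units, read 1670, 2106 and 1623 in congenic kidneys and 1600, 2287 and 1787 in S kidneys. The highest and the lowest Idi1 signals were thus both in S rats. Fdps, which makes farnesyl diphosphate, read 1758 ± 230 in congenic and 1578 ± 216 in S kidneys, a log2 difference of 0.16 with a 95% interval of -0.10 to 0.41.

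Fdft1, the squalene synthase that commits the pathway to sterols, read 3014, 2746 and 2502 in congenic kidneys and 2395, 2258 and 2133 in S kidneys. Every congenic rat lay above every S rat. This amounted to 0.28 ± 0.09 (SE) in log2, with 0.08 to 0.48 as the 95% interval and a fold of 1.22 (limma adjusted p = 0.303). The exact permutation test gave p = 0.1 (2-sided), the smallest that 3 against 3 allows. The second Fdft1 probe set read 988, 828 and 925 in congenic kidneys and 799, 713 and 802 in S kidneys. It too was higher in every congenic rat, with a log2 difference of 0.24 and a 95% interval that reached 0. Msmo1 and Tm7sf2, described next, had 1 probe set each, so no such comparison exists for them.

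After Fdft1, squalene is oxidised and closed to lanosterol. Sqle, the epoxidase, read 418 ± 55.2 in congenic and 409 ± 79.1 in S kidneys, and Lss, the cyclase, 608 ± 57.7 in congenic and 604 ± 25.3 in S kidneys. Their log2 differences of 0.04 and 0.01 had 95% intervals of -0.33 to 0.41 for Sqle and -0.26 to 0.28 for Lss. The Sqle interval includes the difference of Fdft1, and that of Lss ends just short of it. The second Lss probe set read 258, 287 and 74.5 in congenic kidneys and 194, 217 and 214 in S kidneys, congenic rat 3 standing far below the rest.

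Among the enzymes that remove methyl groups from lanosterol, Msmo1, the C4-methyl oxidase, read 2167, 2395 and 1874 in congenic kidneys and 2048, 1571 and 1714 in S kidneys. Its ranges overlapped, S rat 1 lying above congenic rat 3. The log2 difference was 0.27 with a 95% interval of 0.03 to 0.52, a fold of 1.21 (limma adjusted p = 0.436). Tm7sf2, a sterol C14 reductase, read 861, 851 and 842 in congenic kidneys and 806, 707 and 612 in S kidneys. The congenic values were close together and all above the S values. The log2 difference was 0.27 with a 95% interval of 0.01 to 0.54 (limma adjusted p = 0.471).

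Cyp51, the C14 demethylase, read 1756, 2129 and 1433 in congenic kidneys and 1651, 1291 and 1509 in S kidneys. Congenic rat 2 was the highest of all 6 and congenic rat 3 lay within the S range, and the log2 difference of 0.25 had a 95% interval of -0.04 to 0.53. Ebp, the sterol isomerase, gave a similar picture with 849 ± 152 in congenic and 708 ± 70.6 in S kidneys, a log2 difference of 0.25 and an interval of -0.05 to 0.55. Nsdhl, the sterol dehydrogenase, had a difference of 0.10, and Hsd17b7, the 3-ketosteroid reductase, had -0.02.

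The last steps are those of Sc5d, the C5 desaturase, and Dhcr7, which yields cholesterol. Dhcr7 read 1735, 1652 and 1242 in congenic kidneys and 1983, 1764 and 1533 in S kidneys, with overlapping ranges and a log2 difference of -0.20 (95% interval -0.47 to 0.08). Its sign is opposite to that of Fdft1, Msmo1 and Tm7sf2. Sc5d read 1093 ± 39.4 in congenic and 1087 ± 120 in S kidneys by its most intense probe set. A second probe set had a difference of -0.07, and the third read 694, 582 and 550.04 in congenic kidneys and 827, 726 and 815 in S kidneys. All congenic values of the third probe set lay below all S values, with a log2 difference of -0.38 and a 95% interval of -0.65 to -0.11 (limma adjusted p = 0.321), so that the probe sets of Sc5d disagreed.

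**Figure D1:**
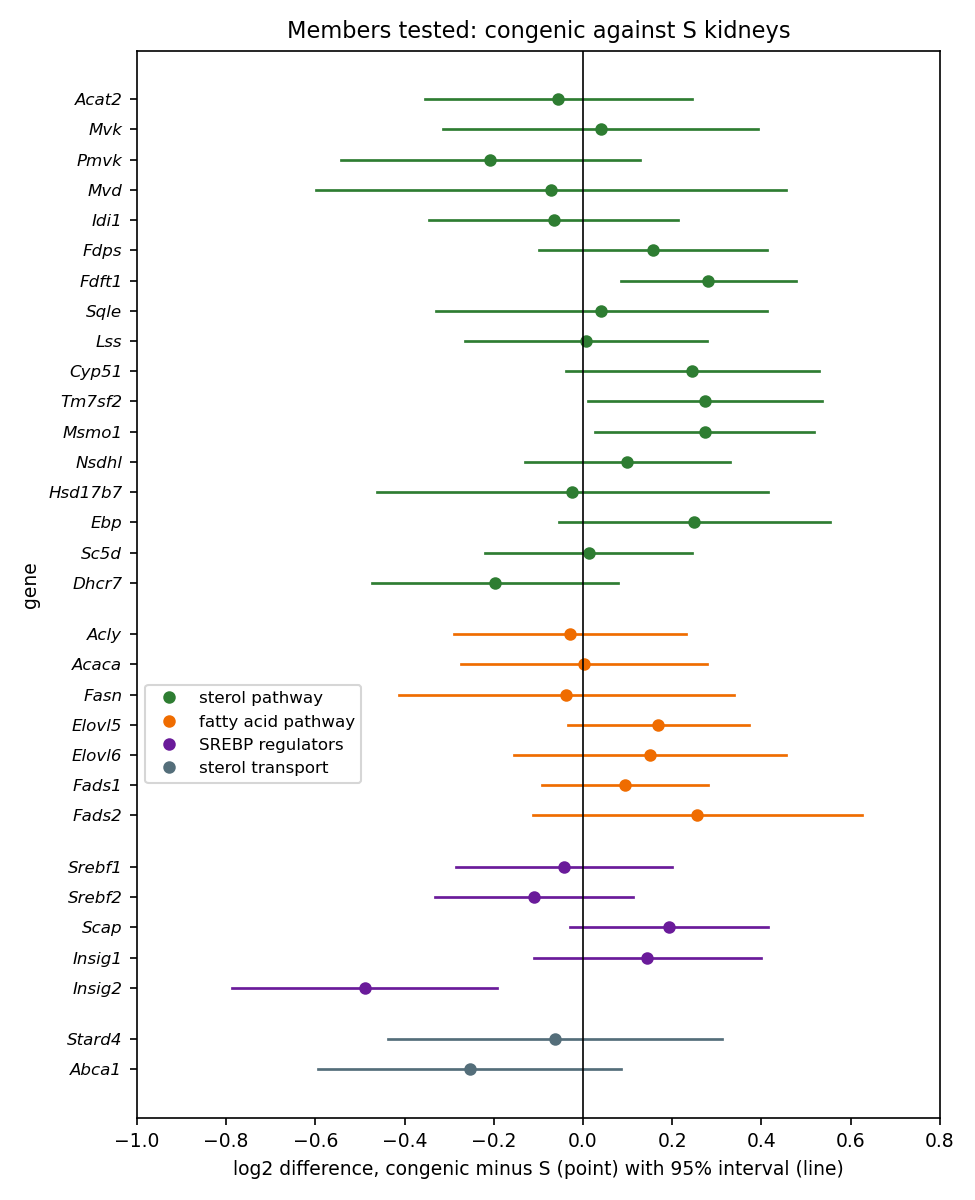
Log2 differences between congenic and S kidneys (points, x axis) with 95% intervals (lines) for the 31 genes tested, listed down the y axis in pathway order and coloured by group. The intervals of Fdft1, Tm7sf2 and Msmo1 lie above 0 and that of Insig2 lies below 0, while none of the 31 passed the adjusted threshold.

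Among the fatty acid pathway genes, 7 of 9 were tested. Their log2 differences ran from -0.04 to 0.26 with a median of 0.09 (0.05 without congenic rat 2 to 0.15 without congenic rat 3, and 0.17 with centring), and 5 of 7 were positive, but 0 reached unadjusted p below 0.05 and 0 were separated between strains. The smallest adjusted p in limma was 0.559.

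Acly, which cleaves citrate to cytosolic acetyl-CoA, read 2139, 1782 and 1746 in congenic kidneys and 1927, 2272 and 1615 in S kidneys. Congenic rat 1 and S rat 2 were the highest and S rat 3 the lowest, and the log2 difference was -0.03 (95% interval -0.29 to 0.23). Acaca, the cytosolic acetyl-CoA carboxylase, read 600.5 ± 46.3 in congenic and 599.8 ± 52.5 in S kidneys, a difference of 0.00 (95% interval -0.27 to 0.28). Acacb, the carboxylase bound to mitochondria, read 158, 72.4 and 72.1 in congenic kidneys and 49.7, 94.0 and 101 in S kidneys. These signals lay under the filter, and the difference of 0.27 from the fit of all probe sets had an interval of -0.92 to 1.45.

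Fasn, the fatty acid synthase, read 2150, 1379 and 1172 in congenic kidneys and 1722, 1679 and 1298 in S kidneys. Congenic rat 1 held the highest and congenic rat 3 the lowest signal, so that the spread within the congenic strain covered the whole S range. Its log2 difference was -0.04 with a 95% interval of -0.41 to 0.34. The pooled within-strain SD of Fasn was 0.36 on the log2 scale, the widest of the 31 genes tested, against a median of 0.18 over these genes and 0.16 over all probe sets tested. The second Fasn probe set read 704, 383 and 300.4 in congenic kidneys and 485, 622 and 419 in S kidneys, again with congenic rat 1 highest and congenic rat 3 lowest. Scd, a stearoyl-CoA desaturase, was under the filter and read 242, 12.7 and 67.1 in congenic kidneys and 166, 374 and 51.0 in S kidneys. The interval of its difference, -4.49 to 1.86, shows that these arrays set no useful bound on Scd.

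The elongases and the front-end desaturases follow. Elovl5, an elongase of polyunsaturated fatty acids, read 3625 ± 286 in congenic and 3229 ± 335 in S kidneys, a log2 difference of 0.17 (95% interval -0.03 to 0.37). Elovl6, the elongase of palmitate, read 619 ± 35.7 in congenic and 562 ± 89.6 in S kidneys by its most intense probe set. Its second probe set read 519.5, 480.5 and 662 in congenic kidneys and 418, 396 and 470.4 in S kidneys, which did not overlap. That second Elovl6 difference was 0.36 with an interval of 0.03 to 0.69 (limma adjusted p = 0.444), against 0.15 for the first. Fads1 and Fads2, the delta-5 and delta-6 desaturases, had differences of 0.09 and 0.26, with 95% intervals of -0.09 to 0.28 for Fads1 and -0.11 to 0.63 for Fads2.

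The same 3 rats held the 3 highest signals of Fasn, Acly and Scd, namely congenic rat 1 and S rats 1 and 2. Of 9 adipocyte markers 8 were measured, and their summed signal, also highest in these 3 rats, was 4731, 2804 and 2889 in congenic kidneys and 3775, 3975 and 3238 in S kidneys. Fabp4, the fatty acid binding protein of fat cells, read 1335, 498 and 444 in congenic kidneys and 796, 1136 and 397 in S kidneys. Fabp4 is part of that sum, and without it S rat 2 would not stand above S rat 3 there, so the 2 are not separate readings. Adipoq, the adiponectin gene, read 217, 153 and 144 in congenic kidneys and 189, 186 and 106 in S kidneys, while Lep, the leptin gene, lay at or under the floor of 12.3 in all but S rat 1. Thrsp, a gene of lipogenic tissues picked out after its values were seen, read 1063, 282 and 382 in congenic kidneys and 613, 824 and 412 in S kidneys. The other markers were ordered differently, apart from Plin1, the lipid droplet coat gene, which had the same 3 rats highest. Cidec was highest in S rat 3 (1168), Pnpla2 had S rat 3 among its 3 highest, Cfd had congenic rat 3 among its 3 highest, and Lipe was highest in S rat 1 (334) and congenic rat 2 (308). In all, these 3 rats held the 3 highest signals for 7 of the 33 genes (Acat2, Sc5d, Dhcr7, Acly, Fasn, Scd and Stard4). They did so for 3 of the 8 adipocyte markers and for 4.61% of all probe sets tested. Of 9 fatty acid pathway genes 3 had this order, and of 26 other fatty acid pathway genes only Thrsp. Fasn, Acly and Scd singled out these rats and are among the 7, so the counts are not a test. Scd, Adipoq and Plin1 were under the filter, whereas the 4.61% covers tested probe sets only. The part of fat cells in the Fasn, Acly and Scd values was not tested.

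**Figure D2:**
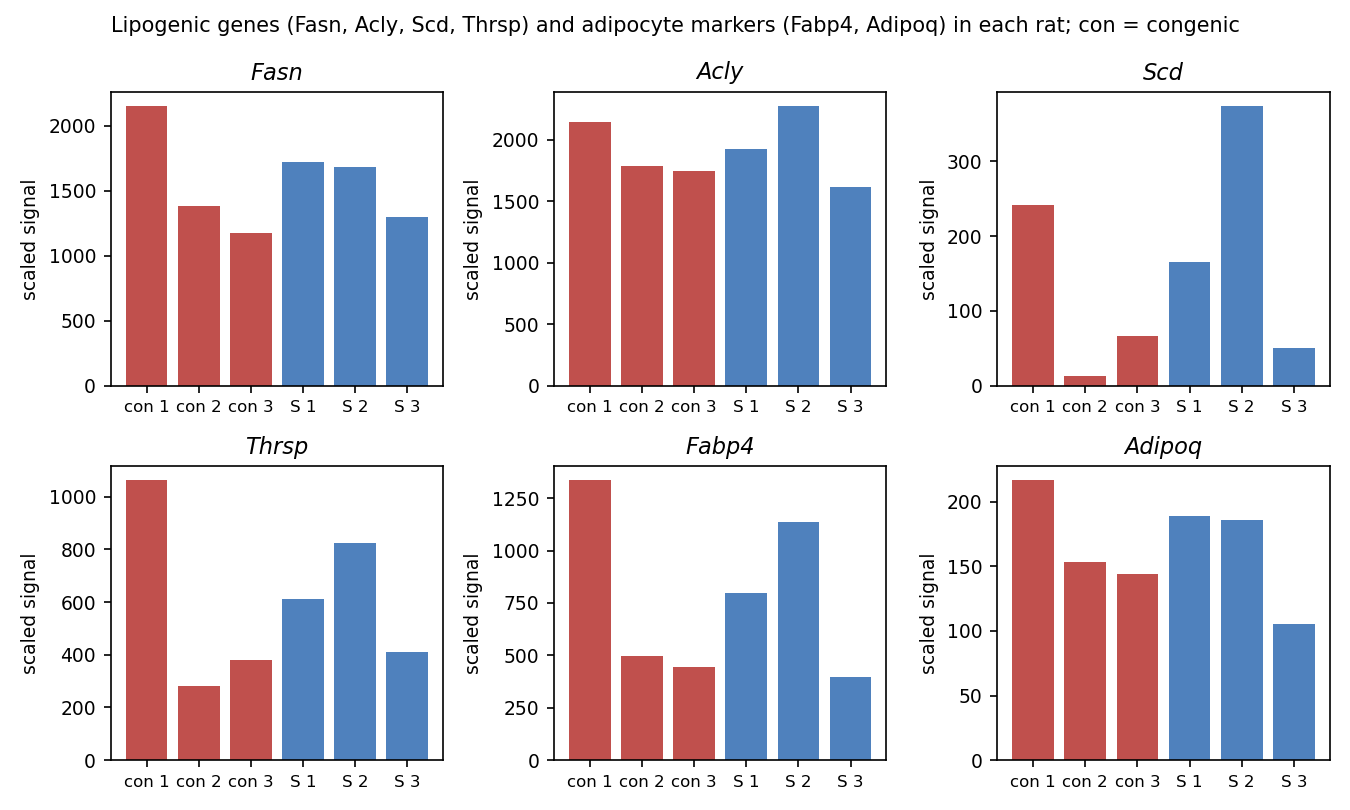
Scaled signals (bars, y axis from 0) of the lipogenic genes Fasn, Acly, Scd and Thrsp and the adipocyte markers Fabp4 and Adipoq in each of the 6 rats (x axis), congenic in red and S in blue. Congenic rat 1, S rat 1 and S rat 2 have the 3 tallest bars in every panel. The 2 markers shown are among the 3 of 8 with that order. Fasn, Acly and Scd are the only 3 of 9 fatty acid pathway genes with it, and Thrsp the only 1 of 26 other fatty acid pathway genes.

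The SREBP regulators came next. The transcription factor genes themselves were close between strains. Srebf1, whose protein acts mainly on fatty acid genes, read 953, 1187 and 1087 in congenic kidneys and 1001, 1169 and 1149 in S kidneys. Srebf2, whose protein acts mainly on sterol genes, read 1628, 1351 and 1477 in congenic kidneys and 1775, 1500.5 and 1533 in S kidneys. Ranges overlapped for both, with differences of -0.04 (95% interval -0.28 to 0.20) for Srebf1 and -0.11 (-0.33 to 0.11) for Srebf2. Scap, the escort protein, read 1379, 1165 and 1342 in congenic kidneys and 1104, 1209 and 1081 in S kidneys. Here congenic rat 2 lay within the S range, and the log2 difference was 0.19 (95% interval -0.03 to 0.42).

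By their most intense probe sets the INSIG genes stood at opposite signs. Insig2 read 574, 489 and 550.4 in congenic kidneys and 684, 696 and 899 in S kidneys. All congenic values lay below all S values, and S rat 3 was the highest. In log2 this was -0.49 ± 0.14 (SE), with -0.79 to -0.19 as the 95% interval (limma adjusted p = 0.258, the smallest of the set). The second Insig2 probe set read 567, 701 and 629 in congenic kidneys and 728, 553 and 608 in S kidneys. It overlapped fully and had a log2 difference of 0.01 with an interval of -0.29 to 0.31. The rule took the first because its mean signal of 6 arrays was slightly higher, and whether the probe sets read different transcript forms was not tested.

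Insig1, itself a target of SREBP, read 2343, 2302 and 2026 in congenic kidneys and 2485, 1795 and 1815 in S kidneys. S rat 1 was the highest of all, and the log2 difference of 0.14 had a 95% interval of -0.11 to 0.40. Over the 5 regulators the median difference was -0.04, with 2 positive and 3 negative. It turned to 0.03 with arrays centred on their medians and to 0.04 without congenic rat 1, so its sign rested on the scaling and on that rat.

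**Figure D3:**
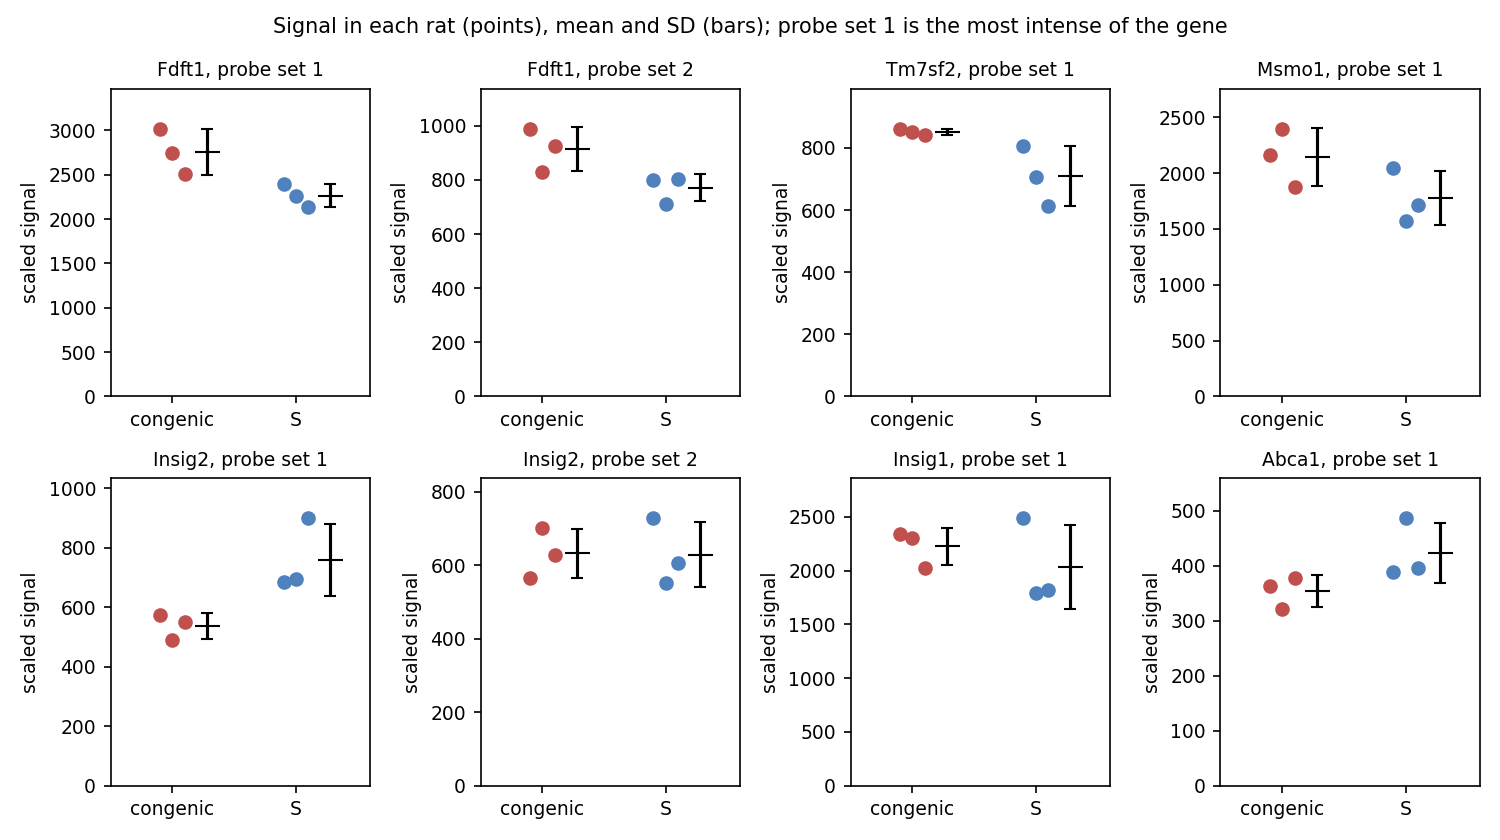
Scaled signal (y axis, from 0) in each rat (points) with the mean and SD (bars), congenic in red on the left and S in blue on the right of each panel, for genes of the sterol pathway and its control. Both Fdft1 probe sets are higher in every congenic rat, whereas of the Insig2 probe sets the first is lower in every congenic rat and the second overlaps.

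For sterol transport, Abca1, the pump that exports cholesterol, read 364, 321 and 377 in congenic kidneys and 388, 487 and 396 in S kidneys. The congenic values lay below all S values, S rat 2 standing highest, with a log2 difference of -0.25 and a 95% interval of -0.59 to 0.09. All 4 Abca1 probe sets had a negative difference, the others being -0.06, -0.64 and -0.65, and the last of these was under the filter. Stard4, which carries cholesterol through the cytosol, read 406 ± 18.4 in congenic and 432 ± 96.4 in S kidneys. Its second probe set had a difference of 0.30 and another, under the filter, 0.45, both opposite in sign to the first.

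The probe sets of a gene often disagreed at this scale of difference. Of the 33 genes 18 had more than 1 probe set, and 18 further probe sets of 16 genes were tested. Only 6 of these 18 had the sign of the most intense probe set. With all tested probe sets of a gene averaged, the median of the sterol pathway was -0.02 in place of 0.04, and that of the regulators was -3.54e-04. The median absolute log2 difference was 0.11 over the 31 genes and 0.12 over all probe sets tested, and the median standard errors were 0.13 over the 31 genes and 0.14 over all probe sets. For 27 of the 31 genes the 95% interval lay within a 1.5-fold difference in either direction.

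Rats of 1 strain also differed among themselves. The median log2 deviation of its 17 genes from the mean of 6 arrays was 0.09, 0.12 and -0.14 in congenic rats 1 to 3 and -0.02, 0.04 and -0.18 in S rats 1 to 3. Congenic rat 3 and S rat 3 were thus the low rats of their strains. Congenic rat 2 held the highest signal for 6 of the 17 genes, and S rat 3 held the lowest for 7. The fatty acid pathway had its highest median deviation in congenic rat 1 (0.14) and its lowest in S rat 3 (-0.11). The numbers that open the array titles are 7, 9 and 15 for the congenic and 4, 13 and 14 for the S rats, and what they stand for is not stated. With numbers under and over 10 as a block, the median of the sterol pathway was -0.01. At unadjusted p below 0.05 there were 9.36% of all probe sets and 3 genes, 1 higher (Fdft1) and 2 lower (Insig2 and Dhcr7). Dhcr7 then had a log2 difference of -0.32 (limma adjusted p = 0.346), with -0.23 within the lower and -0.41 within the higher numbers. Msmo1 and Tm7sf2 no longer reached that level, at 0.17 for Msmo1 (limma unadjusted p = 0.0946) and 0.22 for Tm7sf2 (limma unadjusted p = 0.106). Within the lower numbers Fdft1 differed by 0.26 and Insig2 by -0.37, and within the higher numbers Fdft1 differed by 0.19 and Insig2 by -0.52. The lower numbers hold S rat 1 alone of its strain, and the higher numbers congenic rat 3 alone of its strain. Each difference within the numbers, those of Dhcr7 included, thus rests on 1 rat on 1 side.

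**Figure D4:**
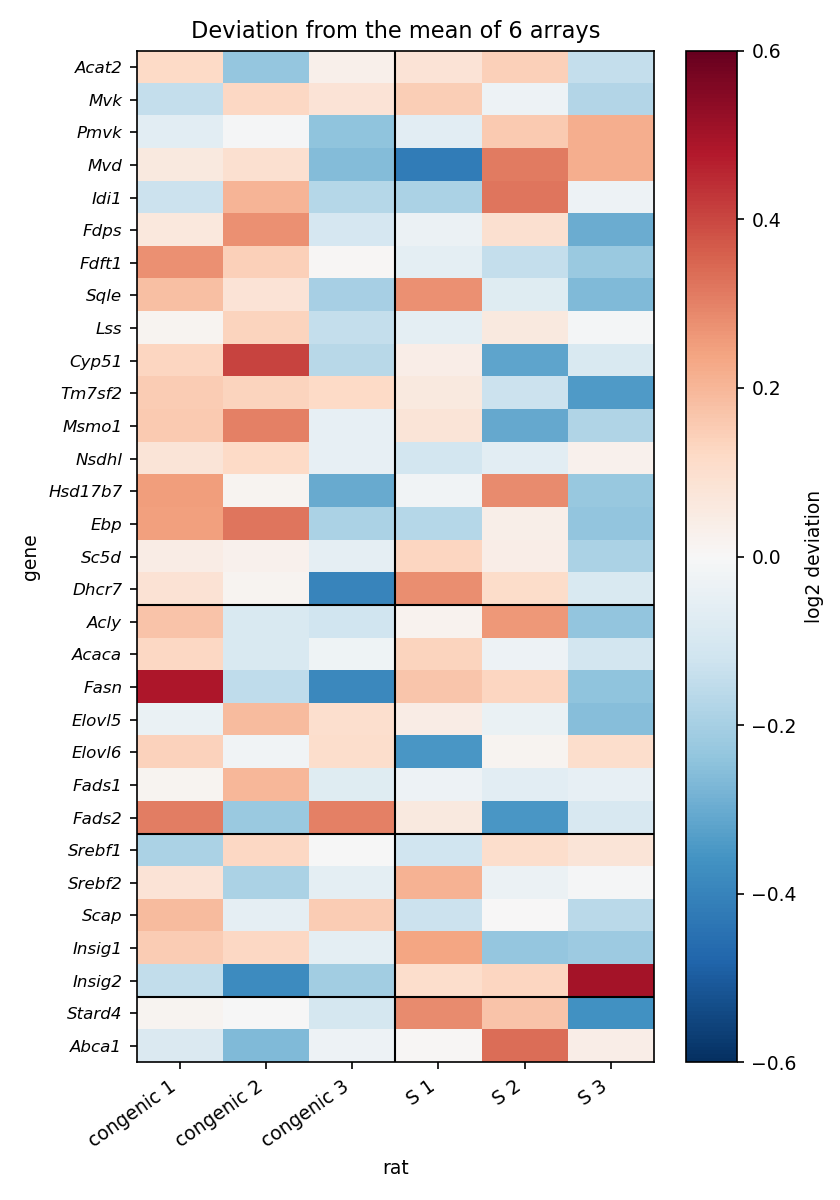
Heat map of the log2 deviation of each tested gene (y axis, grouped by black lines into sterol pathway, fatty acid pathway, SREBP regulators and sterol transport) from its mean over 6 arrays, with congenic rats left and S rats right of the vertical line. Fdft1 and Tm7sf2 are higher in all congenic rats and Insig2 is lower, and many of the other rows mix both signs within a strain.

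The unadjusted results differed in how they held under the alternative fits, which changed the processing or left out 1 rat. Fdft1 and Insig2 stayed at unadjusted p below 0.05 in all 14 alternative fits, with log2 differences of 0.21 to 0.35 for Fdft1 and -0.56 to -0.36 for Insig2. Their adjusted p ran from 0.221 to 0.657 for Fdft1 and from 0.173 to 0.606 for Insig2. Msmo1 and Tm7sf2 stayed there in 7 of 14 each, with differences of 0.17 to 0.38 for Msmo1 and 0.17 to 0.37 for Tm7sf2. With 1 rat left out, Tm7sf2 stayed there only without S rat 1. Msmo1 then did so only without S rat 1 and without congenic rat 3. The count of 4 genes, beside 10.3% of all probe sets tested, moved along with that share. It was 7 without S rat 1 (12.4%), 2 without S rat 2 (8.65%) and 2 without S rat 3 (7.37%). The count was 3 without congenic rat 1 (10.8%), 4 without congenic rat 2 (8.67%) and 5 without congenic rat 3 (8.18%), so the 2 did not always move together. With arrays centred on their medians it was 7, of which 6 were higher, in a fit where 1472 probe sets were higher and 386 lower, against 732 higher and 870 lower as deposited.

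Other genes of these routes gave values of like size. Of the other fatty acid pathway genes 24 of 29 were tested by their most intense probe sets, with 0 past the adjusted threshold. Unadjusted p was below 0.05 for 2 of the 24, both lower in congenic kidneys, against 10.3% of all probe sets tested. Elovl2, an elongase of long polyunsaturated fatty acids, read 934, 864 and 783 in congenic kidneys and 1157, 1040.1 and 1049.9 in S kidneys, a log2 difference of -0.33 with all congenic values below all S values (limma adjusted p = 0.309). Mlxipl, the carbohydrate-responsive transcription factor of lipogenic genes, read 568 ± 3.21 in congenic and 681 ± 20.2 in S kidneys, a difference of -0.26 without overlap (limma adjusted p = 0.472). Acss2, which makes acetyl-CoA from acetate and was the most intense of this list, had 0.09. The first probe set of Scd2 had -0.08, with overlapping ranges. Its second had -0.43, with all congenic values below all S values (limma unadjusted p = 0.0184, adjusted p = 0.385).

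Of the other genes of sterol sensing, uptake and export 18 of 24 were tested by their most intense probe sets. Again 0 passed the adjusted threshold. Unadjusted p was below 0.05 for 4 of the 18, with 2 higher and 2 lower in congenic kidneys. The share over all probe sets was 10.3%, and the shares were not tested against each other. Abcg1, which exports cholesterol like Abca1, read 816, 645 and 632 in congenic kidneys and 836, 894 and 888 in S kidneys. As for Abca1, no congenic value reached the lowest S value, and the log2 difference was -0.33 (limma adjusted p = 0.386). The second Abcg1 probe set had the opposite sign, with 0.38, and the third had -0.28. Both were under the filter, with overlapping ranges. Rnf139, a sterol-sensing ubiquitin ligase of the endoplasmic reticulum, had -0.26 without overlap. Stard3, a late endosomal cholesterol carrier, had 0.28 and Apoe, the apolipoprotein, 0.22, both with overlapping ranges. Lrp2, the endocytic receptor megalin and the most intense of the list, had 0.11. Soat1 had -0.002 by its first probe set and -0.60 by its second (limma unadjusted p = 0.00482, adjusted p = 0.279), with overlapping ranges in both. Of the other sterol pathway genes 2 of 6 were tested by their most intense probe sets, Dhdds with -0.23 and Ggps1 with 0.09, and neither reached unadjusted p below 0.05. The second Ggps1 probe set had the opposite sign, with -0.70 (limma unadjusted p = 0.0275, adjusted p = 0.420). The third had -0.23, and ranges overlapped in both.

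The labels name no genome build, so assembly GRCr8 served only to order genes along chromosomes. In it, 6 of the 35 listed genes lie on chromosome 1 with Adamts16. Acat2 is the nearest, 71 protein-coding genes away, and the others are 2191 to 2797 genes away (Dhcr7, Tm7sf2, Fads2, Fads1 and Scd). Acat2 had a log2 difference of -0.06 with a 95% interval of -0.35 to 0.24. Insig2 lies on chromosome 13.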

How the data were processed

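Kidney RNA from 6 rats was measured on 1-colour Affymetrix arrays. Per the submitters' processing notes the authors used GCOS 1.4, and each deposited value is a linear intensity of 1 probe set. They had been scaled before deposit, since the mean after trimming 2% at either end was 500.2 on the arrays. The sources used here state no settings and hold no detection calls. Of 31099 probe sets, 57 controls were left out. Signals under 12.3, the 10th percentile of the table, were raised to it before log2. The 15521 of 31042 probe sets with a mean log2 signal above the median were tested by limma (version 3.58.1, R 4.3.3), using lmFit and eBayes with trend at 10.7 prior degrees of freedom. Differences are congenic minus S, and p-values were adjusted over all of these by Benjamini-Hochberg with a threshold of 0.05. Genes under the filter took their difference from the same fit over 31042 probe sets. The platform annotation gave 20826 probe sets 1 symbol each, while 436 had several and 9780 had none.

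The genes, lists and tests were chosen with earlier results of these data known, and lists are described by counts and medians without a test. The rule for naming covered all listed genes, with every rat's value for the SREBP regulators, for genes at unadjusted p below 0.05 and for those whose strains did not overlap, and of other lists the genes at unadjusted p below 0.05 and the most intense. The number of arrays limits the precision, with a median standard error of 0.14 in log2. Each array carries an identifier of its own in the labels and was taken as 1 rat. The fit was tested on simulated data. Protein comparisons that had been planned were not made, since no protein table was used here. Alternatives covered scaling, floor, filter, variance model, array weights, title numbers, choice of probe set and each array left out. Figures were drawn with matplotlib 3.10.9.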

Additional observations from a re-analysis of the deposited data

How the results depend on the processing

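The count of probe sets past adjusted p 0.05 was 9 with arrays centred on their medians and ran from 0 to 41 with 1 rat left out, the highest without S rat 1, with 6 without congenic rat 1 and 3 without congenic rat 3. By their most intense probe sets, none of the 33 genes of the set was among them in any alternative, their smallest adjusted p being 0.173. The count of genes at unadjusted p below 0.05 was 7 with centring, 2 without the variance trend, 3 without the filter on low signals and 2 to 7 with 1 rat left out, and the count of probe sets at that level was 2460 without the filter, where 31042 were tested. With 1 rat left out, the median log2 difference of the SREBP regulators ran from -0.053 to 0.041. No paired analysis was possible because the labels give no replicate number that pairs rats of the 2 strains. The numbers 1 to 3 used here only name the rats, and the block on title numbers does not pair them. Quantile normalisation, cyclic loess, the pseudocount of 16 and array weights left the count of 4 genes as it was, beside 9.69% to 11.3% of all probe sets. Of 462 values of single genes under 14 alternatives, 47 changed sign, in 14 of the 33 genes. Among tested genes these all had an absolute log2 difference of at most 0.07, and none had passed the test. The other 19 genes kept their sign in all 14. In each alternative the value moved by less than the within-strain SD of the gene. With 1 of 3 rats left out this had to hold, so it does not measure robustness there. Without the filter or the variance trend the differences stay as they are, so neither their size nor their sign could change. The causes were not tested. Signal over background could not be judged probe set by probe set without detection calls, which limits Acacb and Scd most.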
